A study of Mus musculus with 12 samples.

Results

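Genes that mark hematopoietic stem and progenitor cells were followed in sorted bone marrow cells of mice of both ages. The 10 genes Kit, Flt3, Cd34, Myb, Meis1, Hoxa9, Gata2, Sox4, Mycn and Cdk6 were taken by name from the 23420 genes of the deposited count table, and all 10 were found. Only Kit, Myb and Cdk6 had enough counts to be tested between the ages. Of these, 1 (Cdk6) was called lower in aged mice and neither Kit nor Myb was called, against 45.4% of all 9742 genes tested. The call of Cdk6 was lost when libraries were corrected for gene length taken from full transcripts, and Kit was called higher in aged mice in that fit and in one with the deposited gene length. Another 6 genes had at most 11 counts in any mouse, and Hoxa9 had none in any of the 12 mice.

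The study compared monocytic myeloid-derived suppressor cells (M-MDSCs) from bone marrow of 6 young animals, aged 6 months, and 6 aged animals, at 24 months. All were male mice of the C57BL/6JNIA strain, the labels name no treatment and no allele, and 1 library of total RNA was sequenced per mouse. M-MDSCs are immature myeloid cells that suppress T cells, and they were defined as CD11b+ Ly6G- Ly6Chi cells. The comparison asks whether transcripts of immature cells differ with age in this sort. Mice are numbered as in the labels (aged 1, 2, 4, 5, 6 and 7, young 1, 2, 5, 6, 9 and 10).

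Stem and progenitor cells of the marrow are held in an immature and dividing state by growth factor receptors and a small network of transcription factors. KIT and FLT3 are receptor tyrosine kinases of class III, activated by stem cell factor and FLT3 ligand, and CD34 is a sialomucin on the surface of early progenitors. MYB, GATA2, HOXA9 with its cofactor MEIS1, SOX4 and MYCN are transcription factors, and CDK6 is a kinase that carries cells into S phase with a D-type cyclin. Most of these genes are switched off as cells mature to monocytes or neutrophils, and KIT stays high on mast cells.

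The promoters of the 3 tested genes are shown because these are the members whose levels could be compared between the ages. Each is the 250 bases before the RefSeq gene start on GRCm38.p6, the patched release of mm10, read 5′ to 3′ on the strand of the gene. They lie at chr5:75574737-75574986 on the plus strand for Kit, chr10:21160985-21161234 on the minus strand for Myb and chr5:3343643-3343892 on the plus strand for Cdk6, whose deposited start lies further downstream, at 3344312. All 10 members matched a RefSeq window. Kit and Gata2 had 2 windows each, of which only the first was used. That of Gata2 ends at 88193890, upstream of its deposited start at 88198664. Capitals mark the only match among these 3 windows to the 6 words searched, the E-box CACGTG bound by MYC family proteins.
Kit: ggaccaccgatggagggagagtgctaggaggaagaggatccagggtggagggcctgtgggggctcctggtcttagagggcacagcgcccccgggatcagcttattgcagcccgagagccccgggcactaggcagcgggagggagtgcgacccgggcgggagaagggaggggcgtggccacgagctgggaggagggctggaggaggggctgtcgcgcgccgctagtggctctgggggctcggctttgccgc
Myb: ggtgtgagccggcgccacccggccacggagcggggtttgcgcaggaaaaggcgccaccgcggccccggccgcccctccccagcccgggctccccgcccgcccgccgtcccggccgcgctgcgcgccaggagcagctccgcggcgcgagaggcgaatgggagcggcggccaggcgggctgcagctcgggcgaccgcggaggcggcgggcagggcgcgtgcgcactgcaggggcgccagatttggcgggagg
Cdk6: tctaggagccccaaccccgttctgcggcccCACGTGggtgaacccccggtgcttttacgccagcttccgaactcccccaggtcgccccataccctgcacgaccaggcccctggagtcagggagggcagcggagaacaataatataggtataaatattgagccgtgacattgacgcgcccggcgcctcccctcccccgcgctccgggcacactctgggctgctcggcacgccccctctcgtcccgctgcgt
The windows of Kit, Myb and Cdk6 held 70.8%, 81.2% and 66% G and C. The words were searched on both strands in the windows of all 10 members and of 27025 genes. The E-box CACGTG was found in 6.05% of all windows and, among the members, only in that of Cdk6, starting 220 bases before the gene start. TAACNG, a core of MYB sites, was found in 19.8% of all windows and in those of Cd34, Meis1 and Mycn. TTTATNG, a word of HOX sites, was found in 10.2% of all windows and in that of Mycn. AGATAA of GATA factors, AACAAAG of SOX factors and TGACAG of MEIS factors, found in 10.3%, 4.99% and 15.97% of all windows, matched no member.

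The labelled cell type was checked against its markers first, because it sets what a progenitor transcript can be compared with. Markers of maturing neutrophils, many of them granule genes, stood far above those of monocytes in every library. The 10 neutrophil markers together took 78714 to 98791 CPM (library-scaled counts, defined below) in the aged group and 63146 to 85894 CPM in the young, with Ngp, a granule protein gene, at a mean of 39630 and 30944 CPM. The 12 markers of classical monocytes and of the sort summed to 3431 to 4505 CPM in aged and 4015 to 4199 CPM in young mice, most of it from Itgam, which encodes CD11b and is shared with neutrophils, at 2895 and 3376 CPM. Ccr2, the chemokine receptor of these cells, had a mean of 31.2 CPM in aged and 37.1 in young mice, Fcgr1 had 4.19 and 2.89, and Ly86 had 4.21 and 2.95. Ly6c2, a gene for the sorted Ly6C antigen, had 727 and 500 CPM. The cells are therefore called cells labelled as M-MDSCs below, and no other name is given to them.

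**Figure D1:**
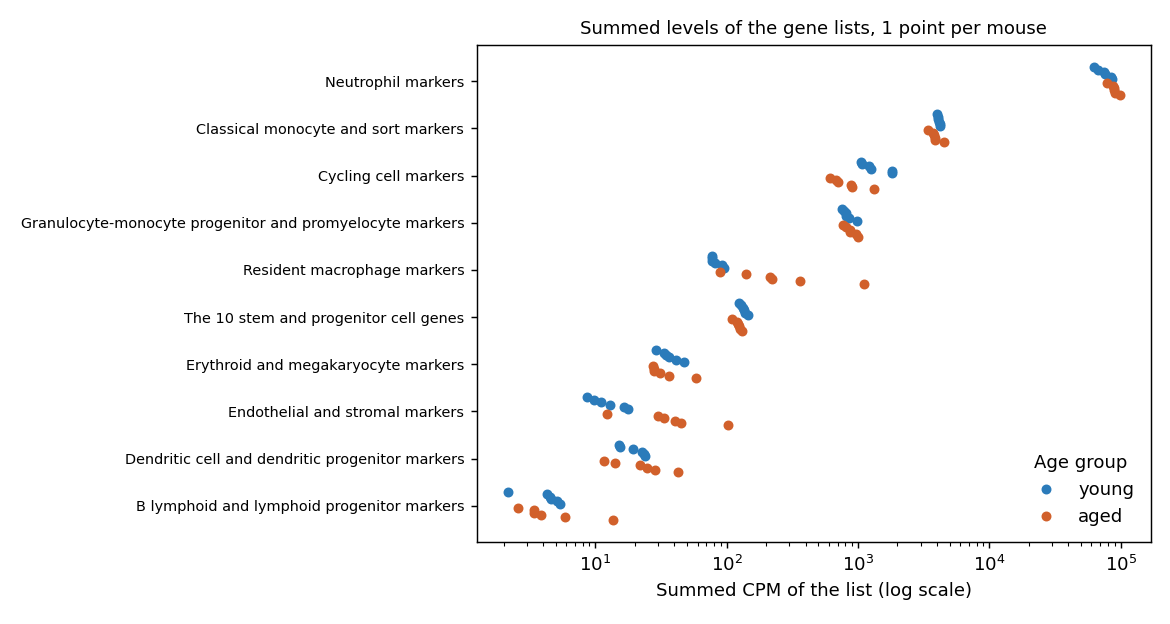
Summed CPM of each gene list (log axis), with 1 point per mouse, young mice in blue and aged mice in orange. The neutrophil sum was at least 63146 CPM in every mouse, the 10 stem and progenitor cell genes summed to 109 to 144 CPM, and aged mouse 1 had the highest resident macrophage sum.

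Between 8737941 and 16300374 fragments were counted per aged mouse and between 4613239 and 9079237 per young mouse. CPM are counts per 1000000 of the library total over tested genes, after scaling with TMM factors, which centre the fold changes of most genes on 0. A count of 3, used here as the floor, stood for 0.188 to 0.350 CPM in aged and 0.306 to 0.643 CPM in young mice. The quasi-likelihood test of edgeR was applied to the 9742 genes that passed its count filter, with p-values adjusted by Benjamini-Hochberg, and a gene is called where the adjusted p was under 0.05. Of these, 45.4% were called, 23.0% lower and 22.4% higher in aged mice. Without TMM factors, 37.8% of the calls were higher, against 49.4% with them. Fold changes fell with gene length (Spearman's rho = -0.48 across 9742 genes, which are not independent replicates). The alignment files of young mice carried the sample numbers 11 to 16 and those of aged mice 17 to 19 and 24 to 26, so age and an effect of sample order cannot be told apart. Aged mouse 1 stood apart in markers of other cells. Its resident macrophage markers summed to 1118 CPM, against 89.4 to 364 CPM in the other aged mice and 77.0 to 94.8 CPM in young mice, and its endothelial and stromal markers to 102 CPM, against 12.2 to 45.3 CPM and 8.57 to 17.6 CPM.

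Kit was the most abundant receptor gene among the 10 and did not differ detectably with age. Its 21 exons, 5181 bases in all, span 75574987 to 75656721 of chromosome 5 (mm10, plus strand). The level in aged mice ranged from 53.4 CPM (aged 5) to 70.8 (aged 4) with a median of 62.2, and in young mice from 50.6 CPM (young 6) to 72.2 (young 2) with a median of 59.1. The lowest and the highest of the 12 mice were therefore both young, and the ages overlapped along most of their range. The means were 62.3 ± 5.65 CPM (SD, n = 6) in aged and 59.8 ± 7.12 (SD, n = 6) in young mice. Behind them were 544 to 996 counts in each aged and 301 to 529 in each young library. The log2 fold change was 0.06 (standard error 0.087, 95% interval -0.12 to 0.25, adjusted p = 0.567, edgeR).

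The value of Kit depended on how the libraries were scaled. Without TMM factors it was -0.02 (adjusted p = 0.877, edgeR). With each library corrected for its trend with gene length it was 0.27, and Kit was then called higher in aged mice (adjusted p = 0.0272, edgeR). Without aged mice 1 and 7 it was 0.08 (adjusted p = 0.539, edgeR). Markers of mast cells, which keep KIT, and of basophils were at differing levels. Of 11 mast cell and basophil markers, Cyp11a1, Gzmb, Tpsab1 and Tpsb2 had no count in any mouse, and Cpa3, Fcer1a, Mcpt8 and Prss34 had at most 2 counts in any mouse. Ms4a2, a chain of the IgE receptor, had up to 18 counts in a mouse, and Il1rl1, the IL-33 receptor gene, had a mean of 7.24 CPM in aged and 8.08 in young mice. The sum of that list, 454 to 755 CPM in aged and 589 to 758 in young mice, came mostly from Hdc, a histidine decarboxylase gene with 599 and 641 CPM, and the part of such cells in the Kit level was not tested.

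Flt3 and Cd34, which mark multipotent and early progenitors, were close to the floor of 3 counts. Flt3 (chromosome 5, 147330742 to 147400489, minus strand, 24 exons) had 2, 4, 2, 0, 2 and 3 counts in aged mice 1, 2, 4, 5, 6 and 7 and 2, 0, 5, 7, 4 and 1 counts in young mice 1, 2, 5, 6, 9 and 10. Young mice 5 and 6 were the highest, and each age held a mouse without a count. The means were 0.213 ± 0.149 CPM (SD, n = 6) in aged and 0.371 ± 0.267 (SD, n = 6) in young mice, a difference that was not detectable at this depth (exact permutation test over mice, two-sided, p = 0.245, 1 of 6 such tests of low genes). The difference in means of Flt3 was -0.158 CPM, or -0.0894 without young mouse 6 (exact permutation p = 0.463). Kit and Flt3 belong to the same receptor class, and per kilobase of counted exon Kit had a mean level of 11.8 CPM over the 12 mice and Flt3 0.0799 CPM.

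Cd34 (chromosome 1, 194938821 to 194961292, plus strand, 8 exons) had 11, 0, 2, 3, 4 and 9 counts in the aged mice, in the same order, and 1, 0, 0, 0, 3 and 2 counts in the young mice. Aged mice 1 and 7 were the highest, and 3 young mice and aged mouse 2 had no count. Its mean was 0.443 ± 0.426 CPM (SD, n = 6) in aged and 0.130 ± 0.151 (SD, n = 6) in young mice, with overlapping values (exact permutation test, two-sided, p = 0.0887). Pooled over each age, the level was 0.451 CPM (95% exact Poisson interval 0.302 to 0.648) in aged mice and 0.131 CPM (0.0480 to 0.284) in young mice. Such intervals cover counting error only and not the spread between mice. Without aged mouse 1 the difference in means was 0.157 CPM in place of 0.314 (exact permutation p = 0.182), and without aged mouse 2 it was 0.402 (exact permutation p = 0.0195). CD34 is also made by endothelial cells, whose markers, with those of stromal cells, summed to 12.2 to 102 CPM in aged and 8.57 to 17.6 in young mice. Of the 2 mice with the most Cd34 counts, aged mouse 1 had the highest of these sums and aged mouse 7 the lowest of the aged mice. Of the endothelial genes, Cdh5 had a mean of 1.26 CPM in aged and 0.190 in young mice. The part of these cells in the Cd34 counts was not tested, and in sorted bulk RNA fewer cells of a type and less RNA per cell cannot be told apart.

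**Figure D2:**
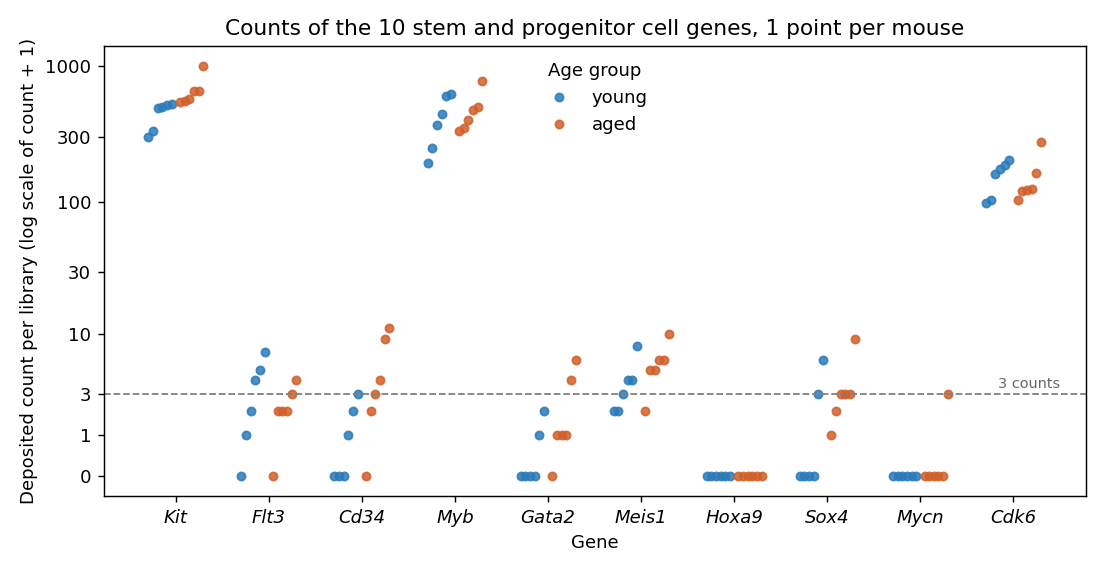
Deposited counts of the 10 genes (log scale of count + 1), with 1 point per mouse, young in blue and aged in orange, and the floor of 3 counts as a dashed line. Kit, Myb and Cdk6 had 98 to 996 counts in every mouse, the 6 low genes had 11 or fewer and Hoxa9 had 0.

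Of 9 class III receptors and their ligands, 4 were tested (Kit among them), and 1 was called lower and 0 higher (25%, against 45.4% of all genes), with a median log2 fold change of 0.02 against 0.01 over all genes tested. Csf1r, the receptor for macrophage colony-stimulating factor, had 141 ± 37.0 CPM (SD, n = 6) in aged and 134 ± 15.9 (SD, n = 6) in young mice (log2 fold change 0.07, adjusted p = 0.704, edgeR). Flt3l, the FLT3 ligand gene, had 6.87 and 6.95 CPM (-0.03 on the log2 scale, adjusted p = 0.917). The signs of Csf1r and Flt3l turned under other settings. Csf1, the ligand of CSF1R, had 18.8 CPM in aged and 26.6 in young mice (log2 fold change -0.50, adjusted p = 0.0497) and was called in only 5 of the 12 fits that left out 1 mouse and after neither length correction.

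Of 18 progenitor surface genes, 9 were tested, with 3 higher, 1 lower and 5 not called in aged mice, and a median log2 fold change of 0.21. The share called, 44.4%, was near the background of 45.4%. After the length correction 5 were called higher and 1 lower (66.7%, against 34.8% of all genes in that fit), with Kit, Cd93 and Spn added and Ly6a lost. With full transcripts 3 were called higher and 1 lower (44.4%, against 35.3% of all genes in that fit). Ly6a, which encodes Sca-1, had 3.24 ± 3.31 CPM (SD, n = 6) in aged and 0.752 ± 0.459 (SD, n = 6) in young mice, from 0.439 to 9.70 and from 0.231 to 1.43 CPM, so the ages overlapped. Its log2 fold change was 2.03 (with a standard error of 0.640 and adjusted p = 0.0176, edgeR), and 1.29 without aged mouse 1. The rise of Ly6a was not called with limma-voom (1.44, adjusted p = 0.110) or after the length correction (1.64, adjusted p = 0.0560). Prom1, which encodes prominin-1, had 87.6 CPM in aged and 120 CPM in young libraries and fell (log2 fold change -0.46, adjusted p = 0.00894, edgeR). Il1rap and Cd164 rose by log2 fold changes of 0.43 and 0.21 (adjusted p = 0.0144 and 0.0305), and Cd164 was not called with full transcripts (adjusted p = 0.0941).

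Among the transcription factors, only Myb had enough counts to be tested, and its lower mean in aged mice missed the threshold. Its 16 exons, 3777 bases in all, span 21124930 to 21160984 of chromosome 10 (minus strand). Aged mice had 35.8 CPM (aged 4) to 48.8 (aged 7) with a median of 44.6, and young mice had 41.6 CPM (young 2) to 65.9 (young 5) with a median of 50.3. Young mice 1, 5, 6 and 9 lay above all aged mice, at 48.8, 65.9, 64.2 and 51.7 CPM, with young mouse 1 barely above aged mouse 7, and young mice 2 and 10 lay among the aged mice. The means were 43.8 ± 4.77 CPM (SD, n = 6) and 52.7 ± 10.2 (SD, n = 6), from 335 to 779 and 194 to 630 counts. On the log2 scale the fold change was -0.27 (standard error 0.118, 95% interval -0.52 to -0.02, adjusted p = 0.0741, edgeR).

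The side of the threshold on which Myb fell was decided by single settings. It was called lower without TMM factors (log2 fold change -0.37, adjusted p = 0.0419, edgeR), without young mouse 2 (-0.33, adjusted p = 0.0334) and without young mouse 10 (-0.32, adjusted p = 0.0461). Without young mouse 5 it was -0.20 (adjusted p = 0.182), and after the length correction -0.18 (adjusted p = 0.211). The summed level of 15 markers of cycling cells was highest in young mice 5 and 6, which also had the highest Myb, at 1828 and 1805 CPM, against 1047 to 1255 in the other young mice and 615 to 1322 in aged mice. Mki67, a proliferation antigen gene, took much of that sum and ranged from 229 to 674 CPM over the young mice, where Aurka, a mitotic kinase gene, ranged only from 26.2 to 30.8 CPM. In aged mice the orders differed in part. Aged mouse 7 had the highest sum and the highest Myb, and aged mouse 4 the lowest of both, but aged mouse 6, second in Myb, had a sum of 685 CPM, below 4 of the other aged mice. Of the 15 markers, 5 (33.3%, against 45.4% of all genes tested) were lower, 0 higher and 10 not called in aged mice, with Mki67 falling from 399 to 99.0 CPM (-2.01 on the log2 scale, adjusted p = 1.34e-04, edgeR). After the length correction 2 were called lower (13.3%, against 34.8% of all genes), and 3 when full transcripts were used (20%, against 35.3%). The part of cycling cells in the Myb level was not tested.

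**Figure D3:**
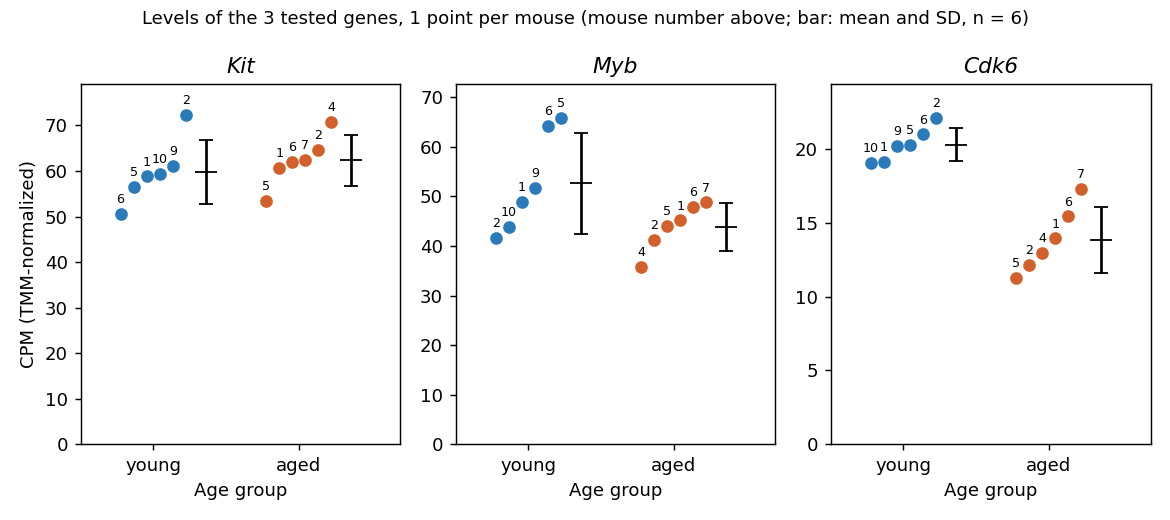
CPM of Kit, Myb and Cdk6 (linear axes from 0), with 1 point per mouse, the mouse number above it, and the mean with SD (n = 6 mice) as a bar. Kit overlapped between the ages, 4 young mice lay above all aged mice for Myb, and all aged mice lay below all young mice for Cdk6.

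Both relatives of Myb were lower in aged mice. Mybl1, active in germ cells, fell from 3.78 to 1.37 CPM (-1.44 on the log2 scale, adjusted p = 0.00274, edgeR). Mybl2, a gene of dividing cells, fell from 8.19 to 4.88 CPM (-0.76, adjusted p = 0.00623). With Myb, 3 genes of this list of 6 were tested, with 2 lower and 0 higher, against 23.0% of all genes called lower.

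Gata2, a factor of stem cells and of mast cell and megakaryocyte precursors, has 6 exons between 88198664 and 88207032 of chromosome 6 (plus strand). It had 6, 1, 4, 1, 1 and 0 counts in the aged mice and 0, 0, 0, 0, 2 and 1 counts in the young mice. Aged mice 1 and 4 were the only mice above 3 counts. The means were 0.233 ± 0.259 CPM (SD, n = 6) and 0.0583 ± 0.0971 (SD, n = 6), which did not differ detectably (exact permutation test, two-sided, p = 0.206). Without aged mouse 1 the difference in means was 0.0880 CPM in place of 0.175. That mouse also had the highest sum of erythroid and megakaryocyte markers, 58.4 CPM, against 27.6 to 36.2 CPM in the other aged mice and 28.9 to 47.0 in young mice, while aged mouse 4 had 28.0 CPM. The part of such cells in the Gata2 counts was not tested.

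Genes whose products act with GATA2 were tested more often. Of 12 genes of this complex, 7 were tested, with 3 lower, 0 higher and 4 not called, and a median log2 fold change of -0.25. The share called, 42.9%, was near the background of 45.4%, and the median was -0.13 with either length correction. Tal1, a basic helix-loop-helix factor that pairs with GATA factors, fell from 6.17 to 3.19 CPM (-0.97 on the log2 scale, adjusted p = 0.00158, edgeR). Its close relative Lyl1 fell from 67.8 to 47.9 CPM (-0.50, adjusted p = 9.64e-04) and Runx1 from 110 to 92.5 CPM (-0.25, adjusted p = 0.00300). Runx1 was called after neither length correction, and its sign turned with the deposited length (0.12, adjusted p = 0.165). Lmo2, the bridging protein of the complex, had 45.8 CPM in aged and 41.0 in young mice (0.16, adjusted p = 0.105). With upper quartile scaling Lmo2 was called higher (0.19, adjusted p = 0.0495).

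Hoxa9 was not detected. Its 2 exons, 2272 bases in all, span 52224054 to 52227370 of chromosome 6 (minus strand), and it had 0 counts in each of the 12 mice. Pooled over each age, a count of 0 allows a level of up to 0.0467 CPM in aged and 0.0653 CPM in young mice (3 counts). Its cofactor Meis1 (chromosome 11, 18880428 to 19018969, minus strand, 13 exons) was the only low gene with a count in every mouse. Meis1 had 6, 5, 6, 2, 10 and 5 counts in the aged mice and 3, 2, 8, 4, 2 and 4 in the young mice. The means of 0.556 ± 0.272 CPM (SD, n = 6) and 0.499 ± 0.214 (SD, n = 6) lay within the spread of either age (exact permutation test, two-sided, p = 0.688).

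Of a list of 19 genes with the Hoxa cluster, Hoxb4 and the MEIS, PREP and PBC cofactors, 4 were tested, none of them a Hoxa gene, with 2 lower and 0 higher (50%, against 45.4% of all genes tested). Another 7 had no count in any mouse. Hoxb4, a homeobox gene of stem cells, fell from 7.81 to 4.13 CPM (-0.94 on the log2 scale, adjusted p = 0.00685, edgeR). Pknox1, a cofactor of the same family as Meis1, fell from 58.1 to 27.3 CPM (-1.10, adjusted p = 0.00402). Pbx2 and Pbx3, of the PBC family of HOX partners, had log2 fold changes of -0.05 and 0.12, neither called. The signs of Pbx2 and Pbx3 turned when single mice were left out.

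Sox4, a factor of lymphoid and myeloid progenitors, is a gene of 1 exon on chromosome 13 from 28950730 to 28953682 on the minus strand. It had 3, 2, 9, 1, 3 and 3 counts in the aged mice and 0, 0, 3, 6, 0 and 0 in the young mice. All aged mice and 2 young mice had a count. The means were 0.349 ± 0.312 CPM (SD, n = 6) and 0.156 ± 0.258 (SD, n = 6), with overlapping values (exact permutation test, two-sided, p = 0.303). Without aged mouse 4 the difference in means was 0.0703 CPM in place of 0.193. Of the markers of B lymphoid cells and lymphoid progenitors, which share SOX4, only Cd79b was tested, and the summed level was 2.59 to 13.6 CPM in aged and 2.14 to 5.40 CPM in young mice.

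Mycn (chromosome 12, 12936093 to 12941836, minus strand, 3 exons) had 3 counts in aged mouse 1 and none in the other 11 mice. Both ages were at or under the floor, so no fold is given (exact permutation p = 1). Its relatives Myc and Mycl were also below the filter, with 38 and 1 counts over all aged mice and 11 and 1 over all young mice. Of 11 genes of the MYC family and the MAX network, 8 were tested, with 1 higher, 1 lower and 6 not called (25% called, against 45.4% of all genes). Mga, a MAX partner, fell from 99.5 to 49.9 CPM (-0.99 on the log2 scale, adjusted p = 7.03e-06, edgeR), or -0.32 (adjusted p = 0.00108) when gene length was corrected with full transcripts. Mlx rose from 51.6 to 63.1 CPM (0.29, adjusted p = 0.0103) and was not called after either length correction (0.18 and 0.12). Max, the shared partner, had 447 CPM in aged and 422 in young mice (0.08, adjusted p = 0.368).

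Over the wider list of 25 progenitor transcription factors, 14 were tested, with 6 lower, 0 higher and 8 not called in aged mice. The median log2 fold change was -0.27 against 0.01 over all genes tested, and 42.9% were called, near the background of 45.4%. Besides Tal1, Lyl1 and Runx1, the fall was called for Erg (-0.39), Etv6 (-0.27) and Hlf (-0.61). Nfe2 had the largest positive value (0.22, adjusted p = 0.0894, edgeR). It was called higher with upper quartile scaling (0.26, adjusted p = 0.0460) and without young mouse 10 (0.27, adjusted p = 0.0461). Lmo2 was also called higher with upper quartile scaling (0.19, adjusted p = 0.0495). After the length correction 3 of the 14 were called lower (21.4%, against 34.8% of all genes), or 4 when full transcripts were used (28.6%, against 35.3%), with medians of -0.119 and -0.118, and Etv6 was called in neither.

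**Figure D4:**
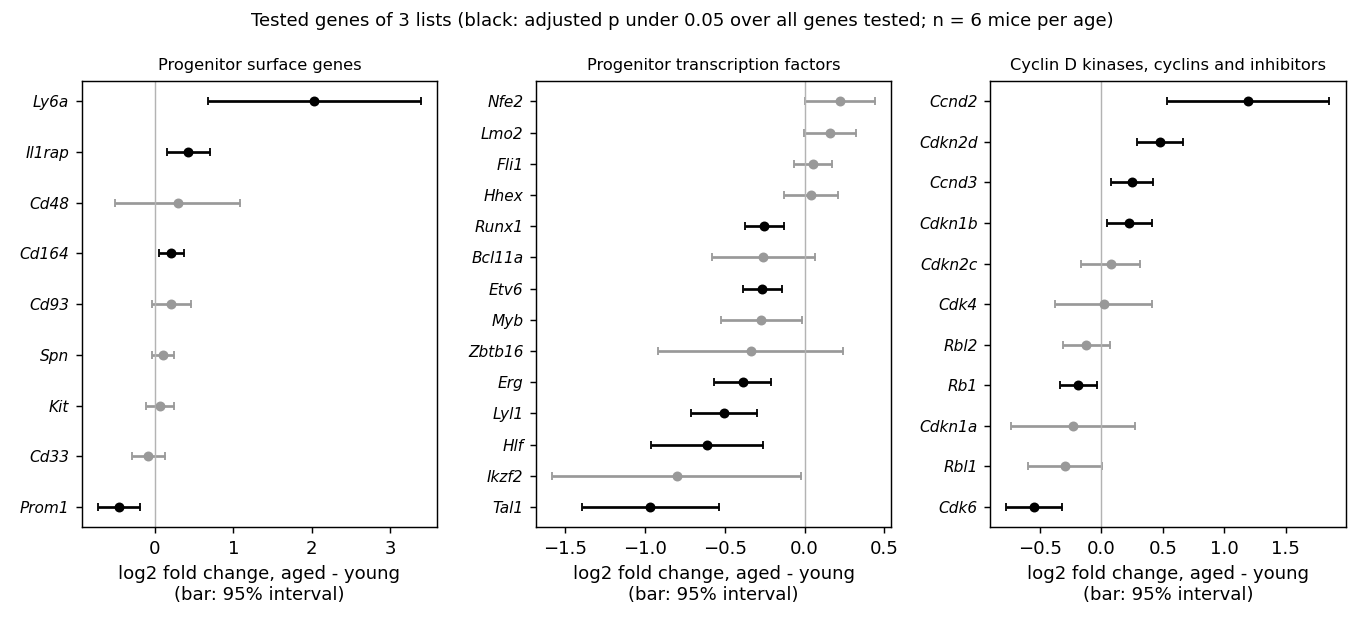
Log2 fold changes (aged minus young) with 95% intervals for the tested genes of 3 lists, black where the adjusted p was under 0.05 and grey otherwise (n = 6 mice per age). No transcription factor was called higher, with 6 of 14 called lower, and Cdk6 had the lowest value of the cyclin D list at -0.55.

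Cdk6 was the only one of the 10 genes called between the ages. Its 7 counted exons, 2470 bases in all, span 3344312 to 3522225 of chromosome 5 (plus strand). Aged mice had 11.3 CPM (aged 5) to 17.3 (aged 7) with a median of 13.4, and young mice had 19.1 CPM (young 10) to 22.1 (young 2) with a median of 20.3. Every aged mouse was thus below every young mouse, as for 12.1% of all genes tested (21.8% did not overlap in either direction). The means were 13.8 ± 2.23 CPM (SD, n = 6) and 20.3 ± 1.14 (SD, n = 6), with 104 to 276 and 98 to 206 counts behind each value. For Cdk6 the log2 fold change was -0.55 (standard error 0.106, 95% interval -0.77 to -0.32, adjusted p = 9.78e-04, edgeR). The difference in means had an exact permutation p of 0.00216 (two-sided), the smallest that 924 regroupings can give.

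The fall of Cdk6 was called whichever mouse was left out (12 fits), with log2 fold changes of -0.62 to -0.49, and was -0.64 without aged mice 1 and 7. It was also called after correction for the deposited exon length (-0.59, adjusted p = 9.17e-04, edgeR). The counted exons of Cdk6 cover only 17.7% of the 13989 exon bases of its GENCODE M21 gene, whose longest transcript has 11525 bases. Of the other members the counted exons covered 32.7% (Meis1) to 78.8% (Mycn). With each gene's longest GENCODE transcript in place of the deposited length, a setting chosen after seeing the data, the log2 fold change of Cdk6 was 0.01 (with a standard error of 0.0944 and adjusted p = 0.964, edgeR). Kit was then 0.24 (adjusted p = 0.0472) and Myb -0.23 (adjusted p = 0.111). On that scale no difference of Cdk6 between the ages was detectable.

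**Figure D5:**
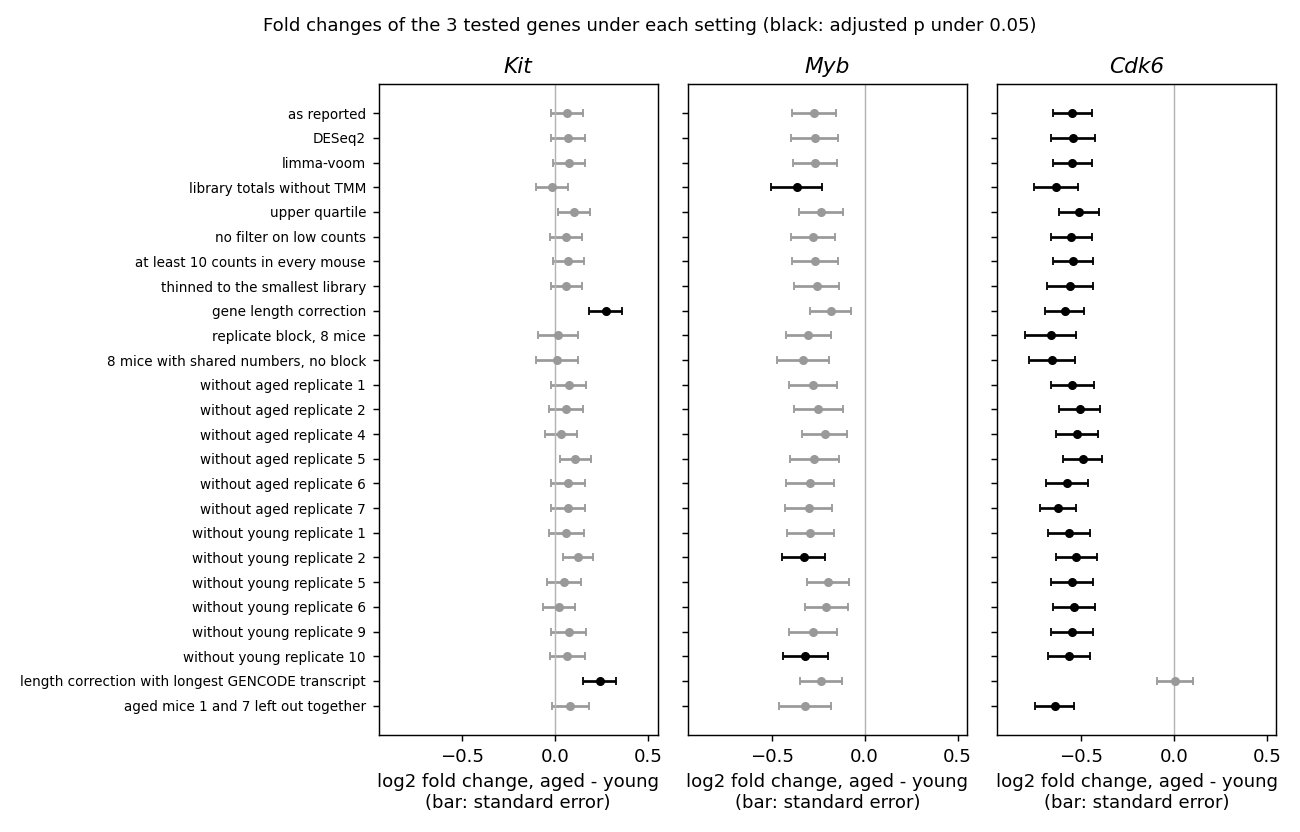
Log2 fold changes (aged minus young) of Kit, Myb and Cdk6 with standard errors under each setting, black where the adjusted p was under 0.05. Cdk6 lay between -0.66 and -0.49 in all settings but the correction with the longest GENCODE transcript, where it was 0.01.

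CDK6 acts with D cyclins, to phosphorylate the retinoblastoma protein, and is held back by INK4 inhibitors. Of 15 genes of this step, 11 were tested, with 4 higher, 2 lower and 5 not called in aged mice (54.5% called, against 45.4% of all genes). Cdk4, the closest relative of Cdk6, had 7.55 CPM in aged and 7.28 in young mice (log2 fold change 0.02, adjusted p = 0.944, edgeR), with a sign that turned under other settings. Ccnd2, a D cyclin, rose from 11.6 ± 4.12 CPM (SD, n = 6) to 26.2 ± 14.9 (SD, n = 6), with values of 7.05 to 18.2 in young and 14.97 to 55.6 in aged mice (1.20, adjusted p = 0.00604). Without aged mouse 1 the log2 fold change of Ccnd2 was 0.83 (called in all 12 such fits). Ccnd3 rose from 712 to 846 CPM (0.25, adjusted p = 0.0190), or by 0.18 with the deposited length correction (adjusted p = 0.0782, not called), and Ccnd1 was below the filter with 88 counts over the aged and 17 over the young mice.

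Of the inhibitors, Cdkn2d, an INK4 gene, rose from 118 to 163 CPM (0.47, adjusted p = 7.71e-04, edgeR) and Cdkn1b rose by 0.23 (adjusted p = 0.0368). The retinoblastoma gene Rb1 fell by 0.19 on the log2 scale (adjusted p = 0.0424), and was -0.023 (adjusted p = 0.796) and -0.064 (adjusted p = 0.450) under the corrections for deposited length and for full transcripts. Cdkn1b was not called with the first of these (adjusted p = 0.104). After the length correction 1 gene of the 11 was called higher and 1 lower (18.2%, against 34.8% of all genes), and with full transcripts 3 higher and 0 lower (27.3%, against 35.3%). Cdkn2d was called in neither (0.21, adjusted p = 0.0517, and 0.20, adjusted p = 0.0604).

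Granulocyte-monocyte progenitors and promyelocytes, which are later stages than the stem cell, were followed by 10 markers of their own. Of these, 8 were tested, with 5 higher, 1 lower and 2 not called in aged mice (75% called, against 45.4% of all genes). Prtn3, which encodes proteinase 3, rose from 1.60 to 4.84 CPM (1.54 on the log2 scale, adjusted p = 9.54e-05, edgeR), and Elane and Mpo, for neutrophil elastase and myeloperoxidase, rose by 1.25 and 0.99, with Elane not called after either length correction. Igsf6 fell from 452 to 347 CPM (-0.38, adjusted p = 2.16e-04). With the length correction of either kind, 2 were called higher and 1 lower (37.5%, against 34.8% and 35.3% of all genes). These primary granule genes were at or below 5.26 CPM in both ages, against 4432, 20903 and 11305 CPM in aged mice for Camp, Ltf and Lcn2 of the later granules.

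The other marker lists give the cells that could add to these counts. Of 10 resident macrophage markers, 8 were tested and all 8 were higher in aged mice, against 22.4% of all genes, led by the complement gene C1qc (log2 fold change 3.32, adjusted p = 7.99e-04, edgeR, and 2.54 without aged mouse 1), with Adgre1 rising least (0.72, and 0.41 without aged mouse 1). Of 10 neutrophil markers, 5 were higher, 0 lower and 5 not called (50%, against 45.4% of all genes), with Stfa2 at 2.04 (adjusted p = 4.66e-04) and Ltf at -0.06 (adjusted p = 0.699). After either length correction 1 was higher and 1 lower (20%, against 34.8% and 35.3% of all genes). Of 12 monocyte and sort markers, 2 were higher, 2 lower and 8 not called (33.3%, against 45.4% of all genes), with the largest rise in Cd14 (1.11, adjusted p = 2.49e-04) and the largest fall in Klf4 (-1.13, adjusted p = 0.0428, called in only 5 of 12 fits with 1 mouse left out). After the length correction 1 of these 12 was called higher and 0 lower (8.33%, against 34.8% of all genes). With full transcripts 2 were called higher and 1 lower (25%, against 35.3% of all genes). Among dendritic cell markers Clec9a fell (-2.45, adjusted p = 2.89e-05), and Bst2 (0.44) and Itgax (0.05) were not called. Cadm1 and Clec10a of that list were below the filter, with 419 and 119 counts over the aged and 31 and 23 over the young mice. The endothelial and stromal list held a rise of the chemokine gene Cxcl12 (2.35, adjusted p = 0.00309), with Egfl7 (0.86) and Col1a1 (-0.26) not called. Egfl7 was called higher with limma-voom (0.93, adjusted p = 0.0380) and in 2 of the 12 edgeR fits with 1 mouse left out. Of erythroid and megakaryocyte markers, Tfrc, the transferrin receptor, fell (-0.47, adjusted p = 0.0152, called after neither length correction) and Gp1bb (-0.01) was not called, and neither Cd79b of B cells (1.10, adjusted p = 0.0568, and 0.66 without aged mouse 1) nor the mast cell markers Hdc (-0.10) and Il1rl1 (-0.14) were called. Cd79b was called higher with DESeq2 (adjusted p = 0.0442) and in 3 of the 12 edgeR fits with 1 mouse left out.

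Over the 91 genes of all these pathway lists that are not among the 10, 51 were tested, with 8 higher and 14 lower in aged mice. The share called, 43.1%, was near the background of 45.4%. With the correction for deposited length it was 31.4%, against 34.8% of all genes in that fit, and with full transcripts 29.4%, against 35.3%. Ordered by level per kilobase of counted exon over the 12 mice, Myb (12.8 CPM) and Kit (11.8) stood first, at the 60.5 and 58.2 percentiles of the genes tested, with overlapping values between mice. Their order turned with age, with Kit at 12.03 and Myb at 11.6 CPM per kilobase in aged mice and Myb at 13.9 and Kit at 11.5 in young mice. Cdk6 followed at 6.91 CPM (45.1 percentile), and then Meis1 at 0.153, Cd34 at 0.109, Sox4 at 0.0855, Flt3 at 0.0799, Gata2 at 0.0450 and Mycn at 0.0107 CPM, where the values of neighbours overlapped between mice. The order of these low genes also turned with age, with Cd34 (0.169) above Meis1 (0.162) in aged mice, and Flt3 (0.102) second to Meis1 (0.145) and Cd34 (0.0495) below Sox4 (0.0529) in young mice.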

How the data were processed

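Total RNA was sequenced from sorted bone marrow cells of 12 mice, 6 per age, with 1 library per mouse. The deposited values are raw counts of fragments per gene. The authors counted them with featureCounts 2.0.0 on exons of mm10, in pairs, by strand and from a mapping quality of 60 up, which lowers genes with near-identical copies. The aligner is not given in the sources used here. Gene lengths are those of the deposited table. No column was left out (0 unmatched).

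The fit used all 12 libraries in edgeR 4.0.16 (R 4.3.3) with filterByExpr, TMM, the quasi-likelihood test and Benjamini-Hochberg adjustment over 9742 genes at 0.05, with age as the only term. The step was tested on simulated data, where 94.9% of log2 changes of 1 and 46% of 0.5 were recovered among 9834 genes. Of the calls there, 2.11% were false. Few genes were changed in that simulation, with the same dispersion for all genes and no trend with gene length. The real data had many more calls and such a trend, so these rates do not carry over to them. Genes below the filter were compared by CPM with an exact two-sided permutation test over 924 regroupings of mice. Library totals are given in the results, and 3 counts were the floor. p-values measure the spread between these mice, taken as independent. Young libraries with adjacent sample numbers were alike in some sums. Cycling markers summed to 1064 and 1047 CPM in young mice 1 and 2. They were 1828 and 1805 CPM in young mice 5 and 6, and 1255 and 1210 CPM in young mice 9 and 10. If such mice are not independent, p-values are too small, and leaving out a single mouse removes no such pair. The cause was not tested.

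Named genes were all 10 members and, of each pathway and marker list, the tested genes that rose most, fell most or had the smallest p, every tested gene where 5 or fewer were tested, and the class III receptors and D cyclins with their kinases. Other genes named, such as abundant markers, were chosen after their values were seen. A gene of these lists is not reported here. The members and lists were chosen with earlier results of these data known. Alternatives were DESeq2 1.42.0, limma-voom (limma 3.58.1), other scalings and filters, thinning, a lowess correction (span 0.3) of log2 CPM (prior count 2) for gene length, a replicate block, and each mouse left out. Chosen after seeing the data were the fit without aged mice 1 and 7 and the length correction with the longest GENCODE M21 transcript, found for 94.4% of genes tested (Spearman's rho of fold change with it -0.46). Same-age libraries differed by more than sampling noise (smallest chi-square per gene 1.67 over 30 pairs).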

Additional observations from a re-analysis of the deposited data

Results flagged for a closer look

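Of 40 groups of 6 mice examined (members and marker sums by age), 7 held a mouse far from the other mice of its age. The rule took the gap to the nearest mouse as a share of the range (Dixon's test). Its rate of 1 in 20 assumes normal values and does not apply to counts near 0. Groups flagged for the same mouse are not independent, so no chance rate is given. Sox4 in aged mouse 4 was 0.962 CPM, and the next aged mouse had 0.334. Mycn in aged mouse 1 was 0.334 CPM, from 3 counts, with no count in the other aged mice. The same mouse had the highest sums of several marker lists: 1118 CPM of resident macrophage markers (next 364), 102 CPM of endothelial and stromal markers (next 45.3), 58.4 CPM of erythroid and megakaryocyte markers (next 36.2) and 13.6 CPM of B lymphoid markers (next 5.83). Young mouse 2 had the lowest B lymphoid sum, 2.14 CPM, below the next young mouse at 4.30. The part of these cells in the counts of the members was not tested.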

How the results depend on the processing

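The count of all genes called stayed within 1.5 times of 4425 in every setting, from 3393 with the length correction to 4750 with DESeq2, and from 3804 to 4717 with 1 mouse left out. Of the 10 genes, 0 were called higher, or 1 (Kit) with either length correction. The number called lower was 1 (Cdk6), 2 without TMM factors, 0 with the longest GENCODE transcript, and 1 to 2 with 1 mouse left out. DESeq2 tested 8 of the 10 genes and the fit without a filter 9, and neither called a low gene. For Meis1 the difference in means was -0.0209 to 0.132 CPM with 1 mouse left out.

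The following log2 fold changes given in the report turned sign, none of them past the threshold in the turned direction, and the cause was not tested. Without TMM factors, Kit was -0.0187, Csf1r -0.00284, Cdk4 -0.0657 and Itgax -0.0320. With the length correction, Runx1 was 0.116, Max -0.0249, Cdk4 -0.236, Il1rl1 0.192 and Bst2 -0.0440. With the longest transcript, Max was -0.0973, Cdk6 0.00692, Lmo2 -0.0678, Cdk4 -0.144, Hdc 0.00844, Il1rl1 0.0327 and Bst2 -0.0737. With limma-voom, Flt3l was 0.00442, Cdk4 -0.0337, Itgax -0.00339 and Gp1bb 0.00152. With upper quartile scaling, Flt3l was 5.05e-04 and Gp1bb 0.0207, and after thinning Flt3l was 0.0477. Without aged mice 1 and 7, Flt3l was 0.0833, Pbx2 0.0517, Pbx3 -0.178 and Gp1bb 0.0107. With 1 mouse left out, the range was -0.0636 to 0.174 for Csf1r, -0.145 to 0.0933 for Flt3l, -0.0938 to 0.0166 for Pbx2, -0.0288 to 0.315 for Pbx3, -0.106 to 0.0943 for Cdk4, -0.0516 to 0.165 for Itgax and -0.0894 to 0.0788 for Gp1bb. Among the other genes of the lists, Cebpe and Mxi1 turned sign and were called in the turned direction, Cebpe with both length corrections (-0.234 and -0.287, from 0.0416) and Mxi1 with the deposited length (0.207, from -0.0326).

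The numbers 1, 2, 5 and 6 stand in both ages, and no pairing of the mice by number was detected. Correlations of deviations were -0.141, -0.0655, -0.245 and -0.246, none highest with its own number. So few numbers cannot settle whether the mice are paired. With the replicate block over these 8 mice, 3446 genes were called, against 4394 without it. Cdk6 was then -0.66 (adjusted p = 0.0101, edgeR), Myb -0.30 (adjusted p = 0.0892), Kit 0.01 (adjusted p = 0.931), Itgax -0.0272 and Col1a1 0.0156. Of the genes of the lists called with all 12 mice, Csf1 and Elane were not called in these 8 mice with or without the block (adjusted p = 0.190 and 0.107 with it). Further genes called with all 12 mice were called in these 8 mice without the block but not with it. They were Ccnd3, Cdkn1b, Rb1, Klf4, Mybl2, Il1rap, Cd164, Mpo, Bub1, Vcam1, Itgam, Ngp and Lcn2, with adjusted p from 0.0552 (Lcn2) to 0.121 (Ccnd3) with the block. Cadm1, Col1a2, Lepr and Itga2b passed the filter in these 8 mice. Cadm1 was called higher without the block (2.98) and with it (2.48, adjusted p = 0.0265). So were Col1a2 (3.53, and 3.49 with it, adjusted p = 0.00612) and Lepr (2.81, and 2.76 with it, adjusted p = 0.0117), but not Itga2b. Of 5 endothelial and stromal markers tested there, 3 were higher in either fit (60%, against 44.7% of all genes without the block and 35.1% with it). Depth limits the 6 low genes, whose floor of 3 counts stood for up to 0.643 CPM in a young mouse.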
